A study of Bos taurus with 11 samples.

Results

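The genes examined here were 4 components of lactogenic hormone signaling in bovine mammary epithelial cells (BMEC), namely the signal transducers STAT5A (ENSBTAG00000009496) and STAT5B (ENSBTAG00000010125), the growth hormone receptor GHR (ENSBTAG00000001335) and the prolactin receptor PRLR (ENSBTAG00000025035). They were chosen for their place in this pathway, by identifier, from the 27607 genes in the table of counts, and 4 of 4 were found there. All 4 passed the limit on low counts, more than 10 reads over the libraries compared, and were among the 18345 genes tested. The cells were primary BMEC from lactating Holstein cows, used at the third passage and differentiated on plastic with insulin, prolactin and hydrocortisone, which were also present in every treatment medium. Growth hormone is not listed among the supplements. The control medium (CTL) held 80 µM lysine, 20 µM methionine and 40 µM histidine, whereas the other media were low in histidine (LH, 10 µM), lysine (LK, 20 µM) or methionine (LM, 5 µM), and cells stayed in them for 60 h. The study kept 2 CTL, 3 LH, 3 LK and 2 LM libraries, replicates 1 and 3 in the case of LM, and these 10 are compared here. The labels do not say whether replicates came from separate cows, so the p-values measure the spread between cultures.

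Prolactin and growth hormone bind related receptors of the class I cytokine receptor family, which have no kinase of their own and rely on the bound kinase JAK2. JAK2 phosphorylates STAT5A and STAT5B, which then pair, enter the nucleus and bind to the promoters of casein and other milk protein genes. In the mammary gland STAT5A is the form best known for driving alveolar differentiation and lactation, while STAT5B is best known for relaying growth hormone signals in liver and muscle. The counts measure mRNA and carry no information on phosphorylation, which is the step that activates STAT5. In the bovine RefSeq annotation of assembly ARS-UCD2.0, STAT5A and STAT5B lie on the same chromosome with the start of 1 other gene between them. Their coding sequences are closely related, so the division of reads between them is uncertain where reads matched both.

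The 10 libraries held 199231024 to 278354731 reads assigned to genes. LM replicate 2, which the study left out, had 173982461 reads. The libraries differed in how many genes with low counts they missed. Of the genes that averaged 50 to 100 reads in the other libraries, 32.1% and 20.6% were at 0 in CTL replicates 1 and 2, 26.1% and 15.1% in LM replicates 1 and 3, 2.93% to 10.6% in LH, 1.66% to 8.67% in LK, and 44.2% in LM replicate 2. Of the genes that averaged 200 to 500 reads, the range that includes PRLR, 2.45% were at 0 in CTL replicate 1, 5.75% in LM replicate 2 and at most 1.05% in the other libraries. The table does not pair its identifiers with gene names, and markers of the labelled epithelial cell type, the JAK kinases, the SOCS inhibitors and the milk protein genes were therefore not used here.

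Both STAT5 genes were well covered, with 10197 to 15895 reads for STAT5A and 3666 to 5297 for STAT5B over the 10 libraries. The receptors had far fewer reads, 325 to 998 for GHR and 128 to 697 for PRLR. Lengths of the transcripts were not used, so these numbers are not compared between genes. Levels are given below as CPM, the count of a gene scaled to a common library size after TMM normalization. Between its highest and lowest library, the level in CPM differed by 1.44-fold for STAT5A, 1.56-fold for STAT5B, 2.80-fold for GHR and 4.64-fold for PRLR. The biological coefficient of variation within groups, as estimated by edgeR, followed the same order, from 8.25% for STAT5A and 12.0% for STAT5B to 29.0% for GHR and 47.2% for PRLR, against a median of 16.9% over all tested genes. A change of a given size was therefore easier to resolve in the STAT5 genes than in the receptors.

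**Figure D1:**
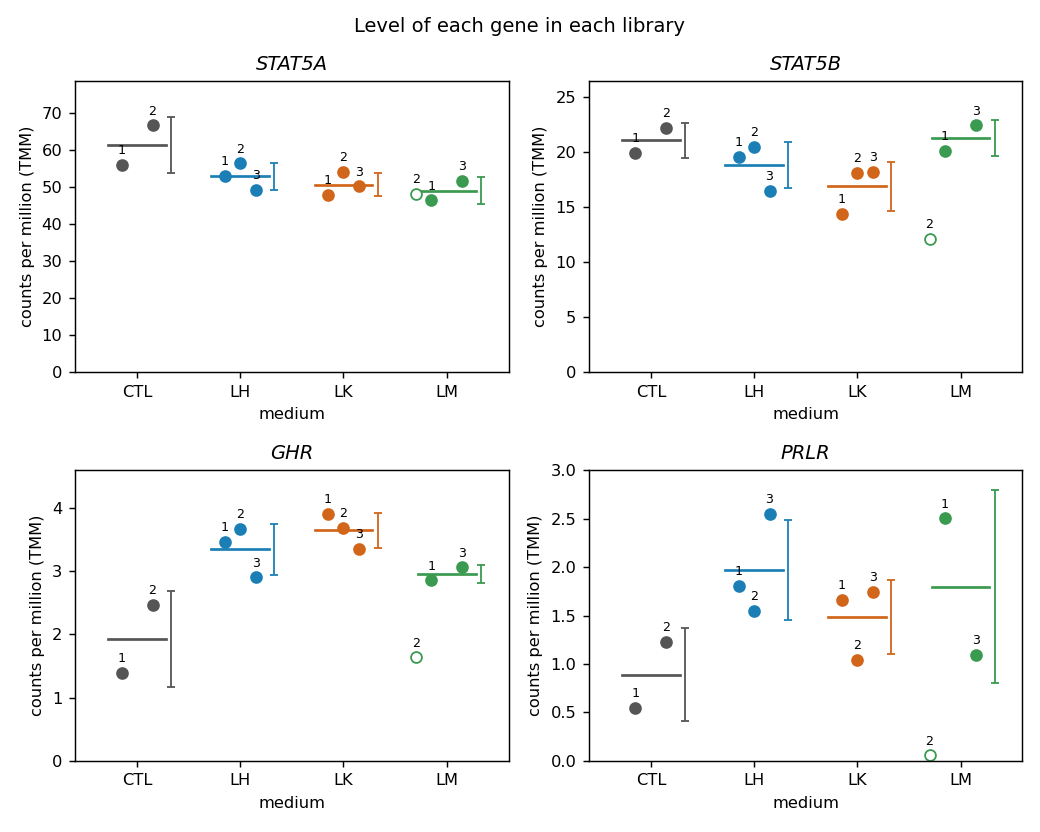
Level of STAT5A, STAT5B, GHR and PRLR in CPM after TMM normalization (vertical axes from 0) in each library of the 4 media, with replicate numbers beside the points. Horizontal lines are group means, bars to their right are ± 1 SD, and the open circle is LM replicate 2, which is not in the means. STAT5A was highest in CTL replicate 2 at 66.6 CPM, and all 8 filled points of the deficient media lie above both CTL points for GHR.

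In none of the 3 comparisons with CTL did a gene of this set pass the test by itself. With edgeR's quasi-likelihood test and Benjamini-Hochberg adjustment, 0 of the 4 genes had an adjusted p under 0.05 in LH, 0 in LK and 0 in LM, where 5.73%, 13.7% and 7.45% of all tested genes did. An unadjusted p under 0.05 was found for 2, 3 and 1 of the 4 genes, against 17.1%, 24.6% and 19.1% of all genes. DESeq2, the tool of the study, called 0, 2 and 1 of the 4 genes at an adjusted p under 0.05, against 8.05%, 17.3% and 10.6% of the 16839 genes to which it gave an adjusted p. None of the 4 genes also met the size limit of the study, a log2 fold change of 1 or more in either direction, in a comparison where it was called by either tool. In edgeR, 1.17%, 3.12% and 1.47% of all genes met both limits in LH, LK and LM. A gene that misses the threshold may still differ, and the interval of each difference is given below.

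STAT5A, the main lactogenic STAT of the mammary gland, was lower when the 3 deficiencies were averaged and compared with CTL. It was measured at 55.8 and 66.6 CPM in CTL replicates 1 and 2. It had 53.0, 56.3 and 49.1 CPM in the 3 LH libraries, 47.7, 53.9 and 50.1 in the 3 LK libraries, and 46.3 and 51.5 in LM replicates 1 and 3. Of the 8 libraries from deficient media, 7 were below both CTL libraries and 1, LH replicate 2, lay between them. Means ranked CTL (61.2 ± 7.59 CPM, SD, n = 2), LH (52.8 ± 3.58, SD, n = 3), LK (50.6 ± 3.13, SD, n = 3) and LM (48.9 ± 3.66, SD, n = 2). In this order of levels LH overlapped CTL, and each of the deficient media overlapped the next.

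The average of LH, LK and LM lay below CTL by a log2 fold change of -0.27 (standard error 0.09, 95% interval -0.44 to -0.10, edgeR adjusted p = 0.0306), or 0.829 times the CTL level. By this contrast 11% of all tested genes were called, 5.38% as lower, and STAT5A ranked 1675 by p-value. The fall was small, and 49.2% of tested genes had a log2 difference at least as large in either direction. Taken separately, STAT5A differed from CTL by a log2 fold change of -0.21 in LH (95% interval -0.41 to -0.01, edgeR adjusted p = 0.258), -0.27 in LK (-0.48 to -0.07, 0.0589) and -0.32 in LM (-0.55 to -0.10, 0.0621). The LK and LM libraries did not overlap CTL, which held in the lower direction for 18.1% and 18.5% of all genes. LM replicate 2 had 48.1 CPM, also below both CTL libraries.

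The call for STAT5A depended on single libraries. Without CTL replicate 2, the highest library, the log2 fold change of the average deficiency was -0.14 (edgeR adjusted p = 0.503), and without CTL replicate 1 it was -0.39 (adjusted p = 0.0170). Without LH replicate 3, LK replicate 1 or LM replicate 1 the edgeR adjusted p was 0.0591, 0.0538 and 0.0769, respectively, and with LM replicate 2 added to the fit it was 0.138 at a log2 fold change of -0.27. The adjusted p was 0.0720 with library size only, 0.0522 with the filterByExpr limit on low counts and 0.130 with voom. DESeq2 gave -0.28 (adjusted p = 0.0259) for the average, by which it called 13.8% of the genes with an adjusted p, and called STAT5A lower in LK (-0.29, adjusted p = 0.0440) and in LM (-0.33, adjusted p = 0.0499). The direction was the same in all 18 alternative fits of the average. In LH alone, the log2 fold change ran from -0.33 to -0.08 with single libraries left out.

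**Figure D2:**
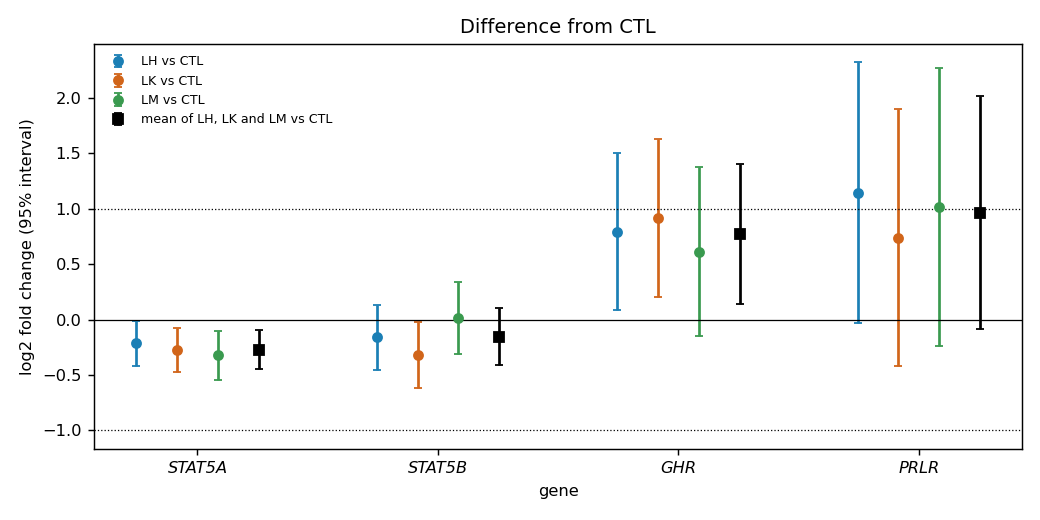
Log2 fold change relative to CTL (vertical axis) of the 4 genes in LH, LK and LM and for the mean of the 3 media, with 95% intervals from the edgeR fit of 10 libraries. Dotted lines mark an absolute log2 fold change of 1. STAT5A lies below 0 throughout (-0.21, -0.27 and -0.32), GHR and PRLR lie above 0 with wider intervals, and STAT5B is on both sides.

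STAT5B did not follow STAT5A in every medium. It was measured at 19.9 and 22.2 CPM in CTL, 19.6, 20.4 and 16.5 in LH, 14.3, 18.1 and 18.2 in LK, and 20.1 and 22.4 in LM replicates 1 and 3. The 3 LK libraries were below both CTL libraries, as for 18.1% of all genes, whereas the LM libraries overlapped CTL. Means ranked LM (21.2 ± 1.64, SD, n = 2), CTL (21.0 ± 1.60, SD, n = 2), LH (18.8 ± 2.09, SD, n = 3) and LK (16.9 ± 2.20, SD, n = 3), and each neighbouring pair in this order overlapped. The log2 fold change relative to CTL was -0.32 in LK (95% interval -0.62 to -0.02, edgeR adjusted p = 0.162), -0.16 in LH (-0.46 to 0.14, 0.639) and 0.01 in LM (-0.31 to 0.34, 1.00). No alternative fit called STAT5B in a comparison with CTL. In LH its log2 fold change ran from -0.24 to -0.07 with single libraries left out. For LK, edgeR and DESeq2 adjusted p-values over the alternatives, with those of voom, lay between 0.126 and 0.532.

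In LM replicate 2, STAT5B had 12.1 CPM from 1984 reads, below every other library. With this library in the fit, the log2 fold change of LM was -0.21 in place of 0.01 (edgeR adjusted p = 0.654). The near equality of LM and CTL in STAT5B therefore rests on LM replicates 1 and 3.

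The ratio of STAT5A to STAT5B counts within a library needs no normalization between libraries, and its changes do not depend on transcript length. It was 2.80 and 3.00 in CTL, 2.71, 2.75 and 2.98 in LH, and 3.33, 2.98 and 2.75 in LK. In LM replicates 1 and 3 it was 2.31 and 2.30, below the other 8 libraries. Differences between the 4 groups made up 78.5% of the squared distance in log2 ratio between the 10 libraries (exact permutation test over 25200 labelings, one-sided, p = 0.0237, and p = 0.0473 after Benjamini-Hochberg adjustment over the 2 ratios tested).

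LM replicate 2 departed from this pattern. Its ratio was 3.97, above every other library. With it included, the permutation test over 100000 random labelings gave an unadjusted and an adjusted p of 0.926. The adjusted p of the exact permutation test was also above 0.05 when any of LH replicates 1, 2 or 3, LK replicates 1 or 2, or LM replicates 1 or 3 was left out (0.0587 to 0.173), and was 0.0325, 0.0373 and 0.0460 without CTL replicate 1, CTL replicate 2 and LK replicate 3. The test covered any difference among the 4 groups and did not single out LM. The lower ratio of LM was seen in the 2 LM libraries that the study kept and not in the one that it left out.

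**Figure D3:**
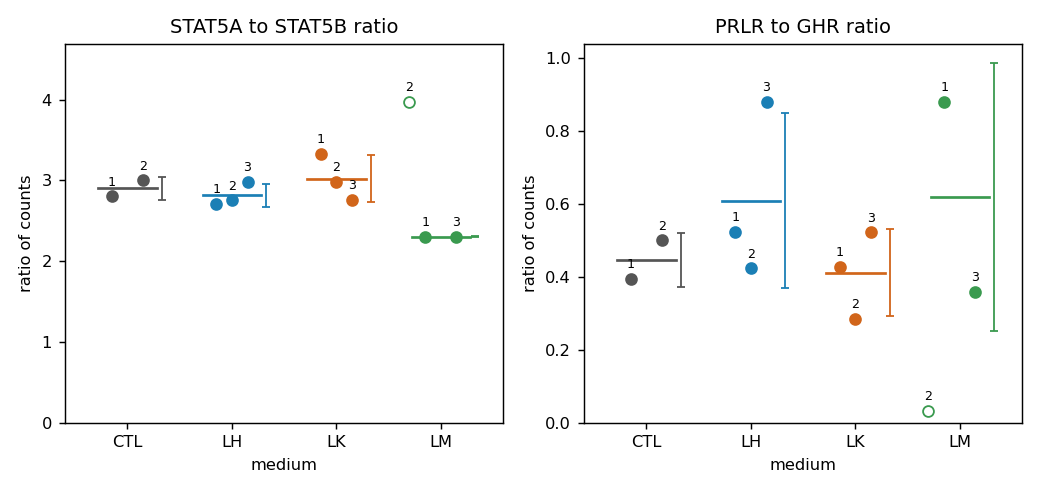
Ratio of counts within each library (vertical axes from 0) for STAT5A to STAT5B and for PRLR to GHR, by medium, with replicate numbers, group means (lines) and ± 1 SD (bars). The open circle is LM replicate 2, not in the means. For STAT5A to STAT5B, LM replicates 1 and 3 coincide at 2.31 and 2.30 below all other libraries, while LM replicate 2 is the highest at 3.97.

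GHR, the receptor of growth hormone, was higher than CTL in every library of the kept deficient media, but not by the test. It was measured at 1.39 and 2.47 CPM in CTL replicates 1 and 2, at 3.46, 3.67 and 2.90 in LH, at 3.90, 3.68 and 3.35 in LK and at 2.85 and 3.06 in LM replicates 1 and 3. None of these 8 libraries overlapped CTL. Groups that lie wholly above CTL were, however, common, at 14.7% of all tested genes for LH, 21.3% for LK and 19.4% for LM. The CTL libraries themselves differed 1.77-fold.

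Means of GHR ranked LK (3.64 ± 0.28 CPM, SD, n = 3), LH (3.34 ± 0.40, SD, n = 3), LM (2.96 ± 0.15, SD, n = 2) and CTL (1.93 ± 0.76, SD, n = 2). LH overlapped both LK and LM, while LM did not overlap CTL. The log2 fold change relative to CTL was 0.92 in LK (95% interval 0.20 to 1.63, edgeR adjusted p = 0.0779), 0.79 in LH (0.08 to 1.501, 0.218) and 0.61 in LM (-0.15 to 1.38, 0.398). The average of the 3 deficiencies gave 0.77 (0.14 to 1.41, edgeR adjusted p = 0.113). In fold terms, the average deficient level was 1.71 times CTL, with an interval from 1.10 to 2.66. DESeq2 called GHR higher in LK at a log2 fold change of 0.90 (adjusted p = 0.0469).

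The size of the GHR difference was set largely by which CTL library it was measured against. Without CTL replicate 2 the log2 fold change was 1.39 in LK (edgeR adjusted p = 0.0162) and 1.24 for the average deficiency (adjusted p = 0.0283), and without CTL replicate 1 these were 0.56 (adjusted p = 0.423) and 0.42 (adjusted p = 0.578). With single libraries left out, the log2 fold change of GHR ran from 0.44 to 1.26 in LH and from 0.26 to 1.08 in LM. LM replicate 2 had 1.64 CPM, between the CTL libraries. With it in the fit, the log2 fold change of LM was 0.38 (adjusted p = 0.664).

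GHR was low in the libraries with the largest share of genes at 0. Over all 11 libraries, the 4 with the largest share of genes at 0, which were LM replicate 2, CTL replicates 1 and 2 and LM replicate 1, were the 4 with the lowest GHR. For PRLR, STAT5A and STAT5B, 2, 2 and 1 of these 4 libraries were among the 4 lowest. Both CTL libraries are among these 4, and how many of all genes show the same pattern was not counted. Outside these 4 the order did not hold. LH replicate 3, with 2.93% of genes at 0, had 2.90 CPM of GHR, and LM replicate 3, with 15.1%, had 3.06. The part of the share of genes at 0 in the differences of GHR and PRLR from CTL was not tested.

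**Figure D4:**
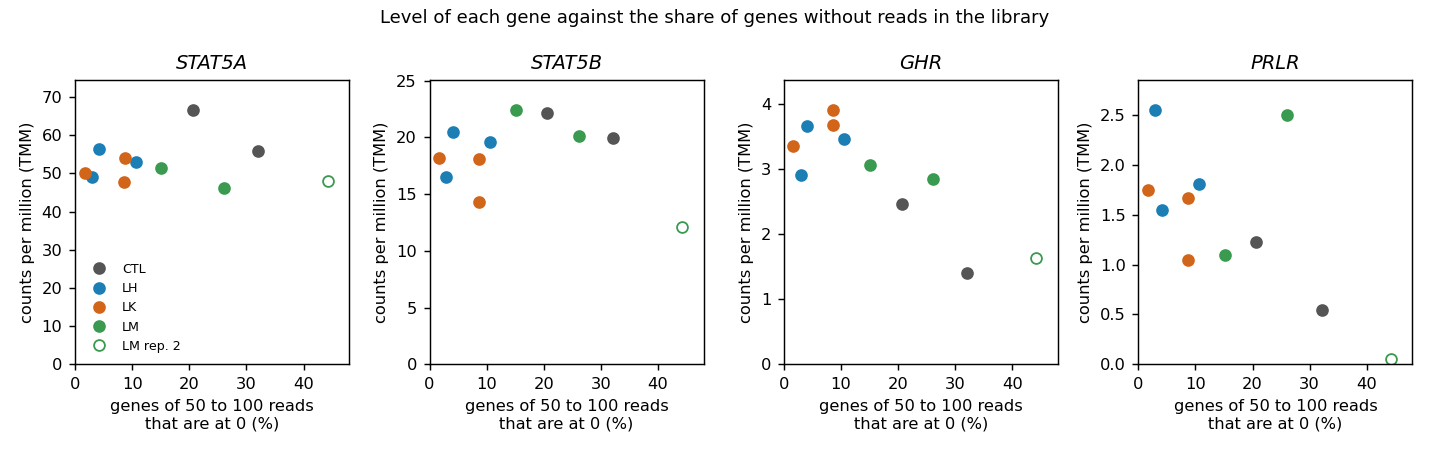
Level of each gene in CPM after TMM normalization (vertical axes from 0) against the percentage of genes averaging 50 to 100 reads in the other libraries that were at 0 in the library (horizontal axis), for 11 libraries, with LM replicate 2 as an open circle. GHR is lowest in the 4 libraries with the most genes at 0, whereas STAT5A is highest in CTL replicate 2 at 20.6% of genes at 0.

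PRLR, the receptor through which the prolactin in these media acts, had the largest spread of the 4 genes. It was measured at 0.549 and 1.23 CPM in CTL replicates 1 and 2, from 128 and 294 reads. It had 1.81, 1.55 and 2.55 CPM in LH, 1.67, 1.04 and 1.75 in LK, and 2.50 and 1.10 in LM replicates 1 and 3. All 3 LH libraries were above CTL, while LK replicate 2 and LM replicate 3 fell between the CTL libraries. Such a separation in the higher direction in LH was seen for 14.7% of all tested genes.

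Means of PRLR ranked LH (1.97 ± 0.52 CPM, SD, n = 3), LM (1.80 ± 1.00, SD, n = 2), LK (1.49 ± 0.38, SD, n = 3) and CTL (0.89 ± 0.48, SD, n = 2). Each neighbouring pair in this order overlapped. The log2 fold change relative to CTL was 1.15 in LH (95% interval -0.03 to 2.32, edgeR adjusted p = 0.310), 1.02 in LM (-0.24 to 2.27, 0.397) and 0.74 in LK (-0.42 to 1.90, 0.477). Each interval included both 0 and a doubling or more, so that a change of that size in PRLR could not be resolved with these libraries. These values depended on single libraries, and with each left out in turn the log2 fold change ran from 0.68 to 1.84 in LH, 0.30 to 1.71 in LM and 0.27 to 1.44 in LK. The highest value in each medium was found without CTL replicate 2, and the lowest without CTL replicate 1 in LH and LK and without LM replicate 1 in LM. No alternative fit gave PRLR an adjusted p under 0.05 relative to CTL.

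LM replicate 2 had 9 reads of PRLR, or 0.0549 CPM, where the next lowest library, CTL replicate 1, had 128. With this library in the fit, the log2 fold change of LM was 0.46 (edgeR adjusted p = 0.893). The ratio of PRLR to GHR counts was 0.394 and 0.499 in CTL, 0.423 to 0.879 in LH, 0.284 to 0.521 in LK, 0.878 and 0.358 in LM replicates 1 and 3 and 0.0336 in LM replicate 2. In the 10 libraries the ratio was not separated by medium (exact permutation test over 25200 labelings, one-sided, p = 0.653, adjusted p = 0.653). In bulk RNA, a difference in the number of cells expressing a receptor and a difference in its RNA per cell cannot be told apart.

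The deficiencies were also compared with each other. In the direct comparisons of LK with LH, LK with LM and LM with LH, edgeR's quasi-likelihood test called 0 of the 4 genes, as did DESeq2, against 7.21%, 5.38% and 2.44% of all tested genes in edgeR and 12.1%, 7.39% and 4.09% of the 12654, 16839 and 17195 genes to which DESeq2 gave an adjusted p. At an unadjusted p under 0.05 there were 0, 1 and 0 of the 4 genes, with 16.7%, 16.5% and 12.5% of all genes. The 1 gene was STAT5B, which was lower in LK than in LM by a log2 fold change of -0.33 (95% interval -0.63 to -0.04, edgeR adjusted p = 0.223). Adding LM replicate 2 to the fit brought this difference to -0.12 (edgeR adjusted p = 0.795). STAT5B and GHR were the genes whose LK and LM libraries did not overlap, as was the case for 34.2% of all genes. GHR was higher in LK than in LM by a log2 fold change of 0.30 (-0.39 to 1.00, edgeR adjusted p = 0.731). STAT5A differed between deficiencies by a log2 fold change of -0.11 to 0.05, and the widest of its 3 intervals ran from -0.31 to 0.09. For PRLR the intervals were wide, as for LK against LH (-0.41, 95% interval -1.42 to 0.61).

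A test of any difference among the 4 media gave edgeR adjusted p-values of 0.0998 for STAT5A, 0.251 for GHR, 0.267 for STAT5B and 0.506 for PRLR, where 16% of all tested genes passed at an adjusted p under 0.05. The 3 deficiencies share the 2 CTL libraries, so that a high or low CTL library moves all comparisons with CTL together. Between CTL replicates 1 and 2 the log2 difference was 0.25 for STAT5A, 0.16 for STAT5B, 0.82 for GHR and 1.16 for PRLR. For each of the 4 genes it was near the size of the difference between the average deficiency and CTL.

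**Figure D5:**
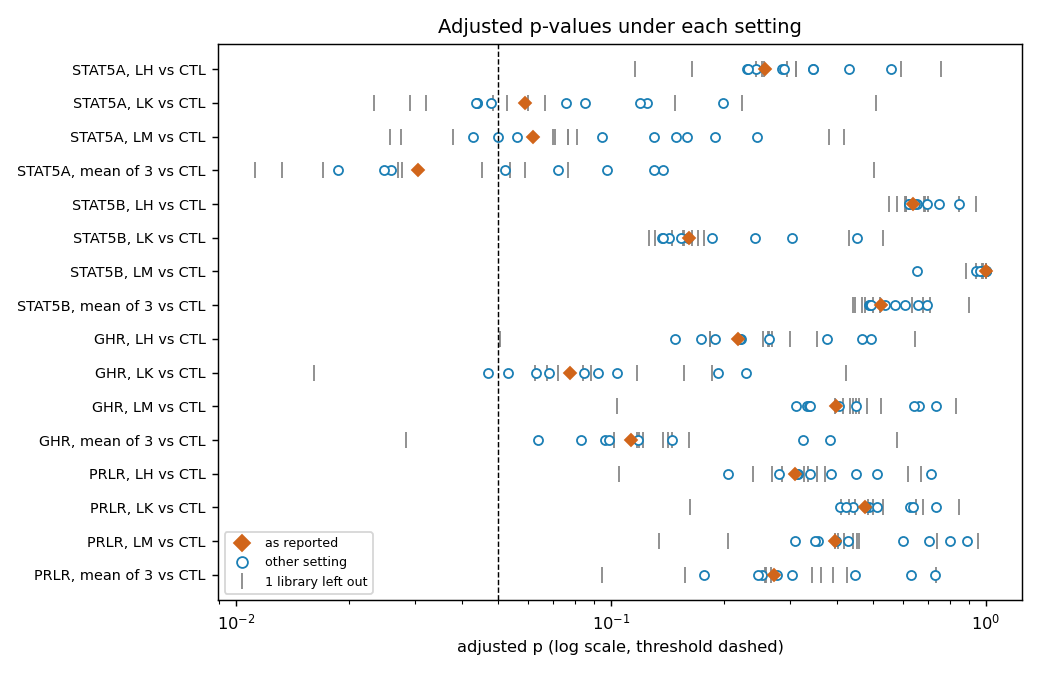
Adjusted p-values (horizontal axis, log scale) for each gene in each comparison with CTL and for the mean of the 3 deficiencies, under the setting reported (diamonds), other settings (circles) and with 1 library left out (ticks), with the threshold of 0.05 dashed. Points lie on both sides of the threshold for STAT5A in LK, in LM and for the mean and for GHR in LK and for the mean, while STAT5B and PRLR stay above it throughout.

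The genes whose levels followed these 4 most closely are given as a description. Among 12746 other genes averaging at least 200 reads, the highest Pearson's r of log2 CPM over the 10 libraries was 0.953 with STAT5A (ENSBTAG00000047281), 0.927 with STAT5B (ENSBTAG00000004037), 0.969 with GHR (ENSBTAG00000031214) and 0.966 with PRLR (ENSBTAG00000010497). Each correlation is over the same 10 libraries, with their differences in depth, medium and share of genes at 0, and the highest of 12746 correlations over 10 points is high by selection. The partner of GHR was called higher by edgeR in LH (log2 fold change 2.70, adjusted p = 0.0334) and in LK (3.58, adjusted p = 0.00154), and had a log2 fold change of 1.68 in LM (adjusted p = 0.251). The partners of STAT5A, STAT5B and PRLR were not called in LH, LK or LM (edgeR adjusted p from 0.0961 to 0.989). Over the same libraries, r was 0.56 between STAT5A and STAT5B and 0.61 between GHR and PRLR.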

How the data were processed

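RNA-Seq libraries of BMEC from 4 media were analysed from raw counts per gene, which the authors deposited after cleaning reads with fastp, aligning them with STAR to ARS-UCD1.2 and counting them with featureCounts on Ensembl 100. The sources used here do not state the featureCounts options, including strand. In every library the counts exceeded the read pairs listed in the study's supplement, so the mates of a pair could each be counted. Groups and replicate numbers came from the labels, and 0 count columns were left unused.

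The main test was the quasi-likelihood test of edgeR 4.0.16 under R 4.3.3 (TMM, 4 groups, no covariates), on genes whose reads summed to more than 10 in the 10 libraries, with Benjamini-Hochberg adjustment over all tested genes. The F statistic gave the standard errors and 95% intervals of fold changes. CPM of LM replicate 2 were computed with TMM over 11 libraries. Ratios of counts had 0.5 added to each count on the log2 scale for the exact permutation test of the F ratio among groups. Alternatives used DESeq2 1.42.0, limma 3.58.1 (voom with quality weights, chosen after seeing the data), other normalizations and limits, only the 2 groups compared, the replicate number as a block, and each library left out in turn. With a single CTL or LM library left, it was assumed to vary like the other groups. The fits were tested on simulated data. Reads carried no molecular identifiers, so that PCR copies are counted too, as both mates of a pair may be. Low counts are therefore less precise than their size implies.

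Genes to be named were the 4 genes, genes of fixed pathway and marker lists where they could be matched, and for each of the 4 the gene with the highest correlation. Of 37063 RefSeq genes, 0 carried an Ensembl identifier, so that 0 of 78 listed symbols were matched and no list was tested. The 4 genes and the lists were chosen with earlier results of these data known. Ratios were tested in Python 3.11.15, and matplotlib 3.10.9 made the plots.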

Additional observations from a re-analysis of the deposited data

Results flagged for a closer look

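The ratio of STAT5A to STAT5B counts in LM replicate 2, a library outside the comparisons, was 3.97, above the 2.80 and 3.00 of the CTL libraries and opposite in direction to LM replicates 1 and 3 (2.31 and 2.30). The same library had the largest share of genes at 0 (44.2%) and the lowest STAT5B level (12.1 CPM). The part of that share in the ratio was not tested. With 2 or 3 libraries in a group, outlying values within groups were not tested for.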

How the results depend on the processing

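Over 37 results, 684 values were recomputed, of which 635 kept their direction and side of the threshold, 17 lost a call, 19 gained one and 13 changed sign, 0 of these 13 with an adjusted p under 0.05. Causes were not tested. The log2 fold change of STAT5A for the average deficiency missed the threshold with all 11 libraries (-0.27), library size only (-0.24), filterByExpr (-0.27), the replicate block (-0.23, edgeR adjusted p = 0.0973) and voom with quality weights (-0.29), and ran from -0.39 to -0.14 with single libraries left out. STAT5A in LK passed it with DESeq2 (-0.29), DESeq2 size factors in edgeR (-0.29), no filter on low counts (-0.27) and only the 2 groups compared (-0.28), and STAT5A in LM with DESeq2 (-0.33) and no filter (-0.32). Leaving out single libraries gave -0.40 to -0.14 for STAT5A in LK, -0.44 to -0.19 for STAT5A in LM and an edgeR adjusted p of 0.0450 to 0.612 for STAT5A among the 4 media. GHR in LK passed with DESeq2 (0.90), and leaving out single libraries gave 0.56 to 1.39 in LK and 0.42 to 1.24 for the average deficiency. The adjusted permutation p of the STAT5A to STAT5B ratio was 0.926 with all 11 libraries and 0.0325 to 0.173 with single libraries left out. STAT5B in LM turned negative with all 11 libraries (-0.21), with voom (-0.073), without CTL replicate 1 (-0.06) and without LM replicate 3 (-0.064), its range over single libraries left out being -0.064 to 0.093. Between deficiencies, PRLR of LK relative to LM turned to 0.27 with all 11 libraries, 0.055 with voom and 0.44 without LM replicate 1 (range -0.77 to 0.44), PRLR of LM relative to LH to 0.10 without LH replicate 3 and 0.35 without LM replicate 3 (range -0.85 to 0.35), STAT5B of LM relative to LH to -0.050 with all 11 libraries, and STAT5A of LK relative to LM to -0.0065 with the replicate block, -0.025 without LM replicate 1 and -0.0089 without LK replicate 2 (range -0.025 to 0.12). Deviations from group means of same-numbered libraries correlated at -0.03 to 0.08 over 12 pairs, so no pairing by number was seen. With 2 or 3 libraries in a group this cannot exclude a pairing. The replicate block changed no other call.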
